A study of Mus musculus with 10 samples.

Results

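Control tumors at day 7 were compared with pretreatment tumors at day 0, gene by gene, in 3 populations of barcodes taken from single-cell gene expression libraries. The tumors were SW1 melanomas in female C3H/HeJ mice aged 4 to 6 weeks, started by subcutaneous injection of SW1 cells into the right flank. Day 0 was the harvest of a cohort of 3 mice after 10 days of growth per the labels (the study's methods give another length). Control mice (6 in the arm by one protocol of the labels and 5 by another, divided between harvests at day 7 and day 21, with the number at day 7 not given) then drank water without L-fuc, and the labels give control water for the day 0 cohort as well. L-fuc, the sugar given to the other arm, was absent from both sides. Both sides are labelled as CD45+ cells sorted from the tumors, and each is 1 library of pooled mice among the 10 libraries of the series. C3H/HeJ mice carry a defective Tlr4, the receptor for bacterial lipopolysaccharide. With 1 library per side there is no replicate, no test and no p-value, and the day, the mice and the library cannot be told apart.

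Barcodes with at least 500 genes and at most 10% of UMIs (unique molecular identifiers, each marking 1 captured RNA molecule) from mitochondrial genes were kept, which left 1470 of 1725 barcodes at day 0 and 17897 of 20741 at day 7. T cells were barcodes with at least 2 UMIs of Cd3e, Cd3d and Cd3g together, macrophages those with at least 10 UMIs of the complement genes C1qa, C1qb and C1qc, and tumor barcodes those with at least 1 UMI of Sox10 and 0 of Ptprc, the gene of CD45. The T cell gate held 477 barcodes at day 0 and 1497 at day 7, the macrophage gate 456 and 1772, and the tumor gate 265 and 8996. Of the kept barcodes, 32.45% (exact 95% interval 30.06 to 34.91) were in the T cell gate at day 0 and 8.365% (7.963 to 8.78) at day 7, whereas the tumor gate took 18.03% and 50.27%. A sort for CD45+ cells would remove tumor cells, so the 50.27% at day 7 is at odds with the label. An impure sort and an unsorted load cannot be told apart here, and whether the 2 libraries differed in this was not tested. The shares describe the libraries and not the tumors. The gates can overlap, and 86 barcodes at day 0 and 693 at day 7 passed more than 1. Intervals here and below cover counting error only.

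The populations are known for distinct programs. Naive and central memory T cells circulate between blood and lymphoid tissue, guided by Ccr7 and S1pr1 and held in that state by factors such as Tcf7, Lef1 and Klf2, and they lose much of this program once they are activated by antigen. Macrophages exposed to the type 2 cytokines IL-4 and IL-13 take up an alternative program that includes Arg1, Chil3 and Retnla, and tissue macrophages secrete CC chemokines that attract monocytes and lymphocytes. Melanoma cells come from the neural crest and can express Schwann cell genes next to, or in place of, the pigment genes.

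RNA of other cells was present in each gate, and its amount differed between the libraries. Median UMIs per barcode were 4920 at day 0 and 4615 at day 7 in T cells, 7887.5 and 6285 in macrophages, and 16881 and 7411.5 in tumor barcodes. The summed level of 8 to 9 markers of SW1 cells in the T cell gate was 2.808% of that in the tumor gate at day 0 and 40.09% at day 7, and in the macrophage gate 2.273% and 28.52%. Single tumor markers in the T cell gate at day 7 ranged from 0 to 69.86% of their level in tumor barcodes, with a median of 43.49%. Markers of T cells in the macrophage gate were at 13.4% of their level in T cells at day 0 and 29.09% at day 7, and markers of macrophages in the T cell gate were at 24.55% and 35.88% of their level in macrophages. T cell barcodes free of C1qa, C1qb, C1qc and Sox10 UMIs were 332 at day 0 and 154 at day 7, and these exclusive gates were used beside the full gates. The median share of mitochondrial UMIs in T cells was 0.288% at day 0 and 2.018% at day 7. Of all barcodes, 28 had the same sequence in both libraries, and 0 of these were in the T cell or macrophage gate of both.

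Levels are summed UMIs of a gate scaled to a total of 1000000 (CPM). A log2 ratio is that of CPM plus 5 at day 7 over CPM plus 5 at day 0, genes with a mean of at least 20 CPM over both libraries were counted, and a gene was called where it differed at least 2-fold on that scale. In T cells 594 of 5929 genes (10.0%) were called higher at day 7 and 166 (2.80%) lower. In macrophages 519 of 5394 genes (9.62%) were called higher and 85 (1.58%) lower. In tumor barcodes 95 of 6178 genes (1.54%) were called higher and 31 (0.502%) lower. The median log2 ratio of all counted genes was 0.13 in T cells, 0.10 in macrophages and -0.05 in tumor barcodes.

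Called genes were divided by the gate in which each was most abundant. The same shares over all counted genes are not given, so these shares have no background beside them. Of the 594 genes higher in T cells, 527 (88.72%) had their highest level at day 7 in tumor barcodes and 39 in T cells. Of the 519 genes higher in macrophages, 415 (79.96%) were highest in tumor barcodes, 94 in T cells and 10 in macrophages. Of the lower genes, 134 of 166 in T cells (80.72%) and 67 of 85 in macrophages (78.82%) had their highest level at day 0 in the gate itself. A lower call needs a high level in that gate at day 0, which favours this outcome. Tumor RNA in the other gates moved with these counts, and its part in them was not tested beyond the alternatives given here. When ratios were shifted so that 234 genes at least 4-fold higher in T cells than in the other gates at day 0 had a median of 0 (a shift of 0.94 on the log2 scale), 3334 genes were called higher and 33 lower in T cells. The same scaling in macrophages (93 genes, a shift of 0.61) gave 1670 and 23. Scaling by the median of ratios shifted T cells by -0.15, macrophages by -0.11 and tumor barcodes by 0.05, and it gave 469 genes higher and 252 lower in T cells. Totals without mitochondrial, ribosomal protein, hemoglobin and nuclear RNAs gave 216 higher and 25 lower in tumor barcodes.

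**Figure D1:**
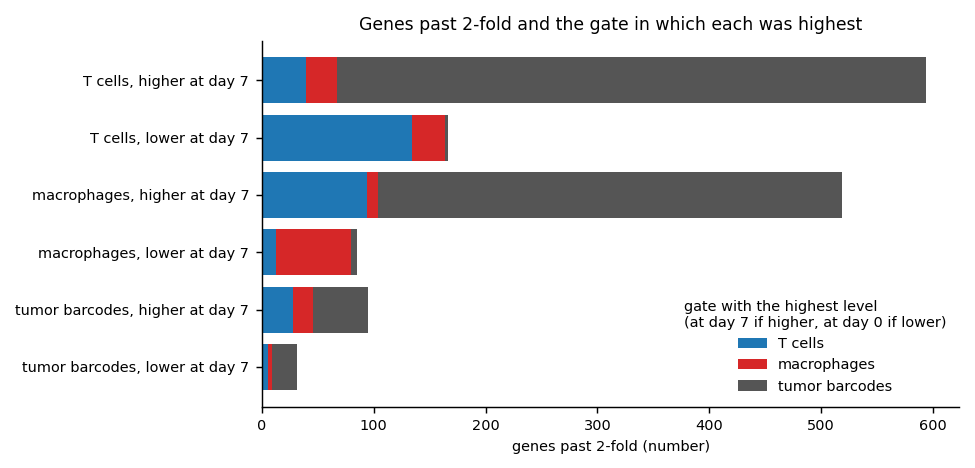
Number of genes called at least 2-fold higher or lower at day 7 in each gate (horizontal axis), with each bar divided by the gate in which the gene had its highest level, at day 7 for higher genes and at day 0 for lower genes. Most of the 594 genes higher in T cells and the 519 higher in macrophages were highest in tumor barcodes, and most lower genes were highest in the gate itself.

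**Figure D2:**
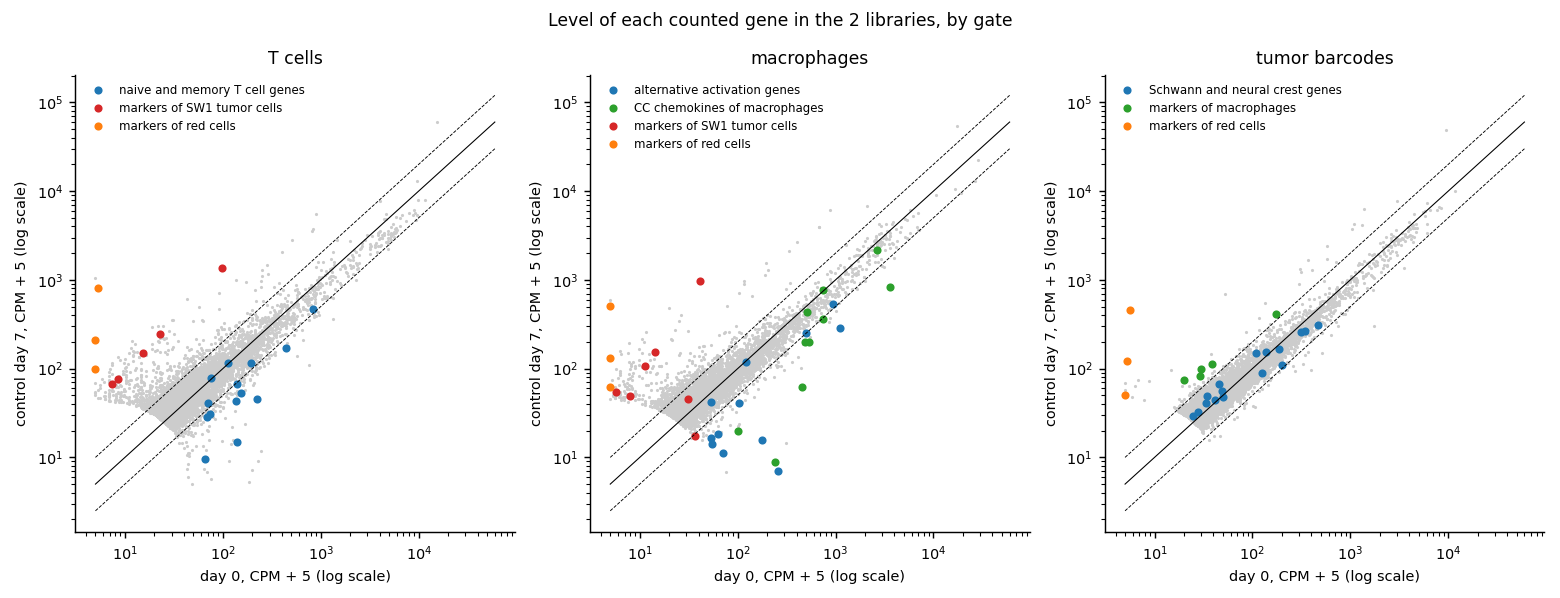
Level of each counted gene at day 0 (horizontal, CPM + 5) and at control day 7 (vertical, CPM + 5) on log axes, 1 panel per gate, with members of named lists in colour, the line of equality drawn solid and the 2-fold lines dashed. Naive and memory T cell genes lie on or below the line of equality in T cells and alternative activation genes on or below it in macrophages, while red cell genes lie above it in all 3 panels.

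Genes of naive and memory T cells were lower at day 7. Of 15 genes in that list 14 were counted in T cells, of which 9 were called lower and 0 higher, against 2.80% lower of all counted genes. Their median log2 ratio was -1.26 against 0.13 for all counted genes. General markers of T cells had a similar median in this gate, -1.21, with 8 of 9 lower. The medians of the list and of these markers were -1.36 and -0.65 in exclusive gates, and -0.32 and -0.27 scaled to T cell genes. Whether the list was lower beyond T cell genes in general was not tested. The summed level of the list was 2700 CPM at day 0 and 1230 CPM at day 7. It was 1846 CPM in the L-fuc library of day 7, 1249 CPM in the control library of day 21 and 1226 CPM in the L-fuc library of day 21, so day 0 was the highest of the 5 libraries.

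Ccr7 (chromosome 11, 99144196 to 99155077, minus strand, mm10), the receptor that guides T cells into lymph nodes, was at 220.7 CPM at day 0 and 40.32 CPM at day 7. It was at 81.81 CPM in the L-fuc library of that day, and at 23.34 CPM (control) and 39.45 CPM (L-fuc) at day 21. The ratio was 5.47-fold lower at day 7 (4.85 to 6.18). In T cell barcodes thinned to 2000 UMIs each, 29.17% (24.92 to 33.7) had a Ccr7 UMI at day 0 and 4.323% (3.255 to 5.617) at day 7, with 432 and 1226 barcodes deep enough. The share among macrophages, where free RNA and doublets are a source, was 2.887% and 1.252%, so T cells stood above that background at both days, by less at day 7.

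Igfbp4, which encodes a binding protein of insulin-like growth factors and is abundant in naive T cells, was at 133.8 CPM and 9.778 CPM, or 13.7-fold lower at day 7 (10.99 to 17.18). Dapl1, a gene of resting T cells, was at 61.1 CPM and 4.536 CPM, or 13.5-fold lower (9.75 to 19.0). These were the lowest log2 ratios of the list. Tcf7, the factor of naive and stem-like T cells, was 3.07-fold lower (147.7 and 48.09 CPM). S1pr1, needed for exit from lymph nodes, was 2.70-fold lower, the factor Klf2, which drives S1pr1, 2.67-fold, and the chromatin organizer Satb1 2.67-fold. Other members were nearer to equality. Il7r, the receptor for the survival cytokine IL-7, went from 190.9 to 109.7 CPM and Ltb, which encodes lymphotoxin beta, from 838.2 to 470.7 CPM, neither of which was called. Foxp1 (108 and 109.7 CPM) and Id3 (71.37 and 72.78 CPM) had a ratio of 1.02.

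The size of these differences depended on the choice of barcodes and scale, and their direction did not for the genes called lower. For scaling to T cell genes that was fixed in advance. It adds 0.94 to every log2 ratio, less than the 2-fold limit of a call, so it could not reverse a called gene. In exclusive gates, 9 of the 14 genes were called lower, with a median of -1.36, and Ccr7 had a log2 ratio of -1.97 in place of -2.32. In T cell barcodes that also held a receptor contig, a readout the gate did not use, the median was -1.26 with 9 called lower. SW1 markers were higher at day 7 in those barcodes too, with a median log2 ratio of 4.27 against 3.29 in the full gate. A ratio between the days does not give how much tumor RNA they held at either day. With tumor RNA subtracted in proportion to tumor genes 6 remained past 2-fold lower and the median was -0.68. Scaled to T cell genes 3 did, with a median of -0.32 against 1.075 for all counted genes. Those 3 were Igfbp4 (-2.29), Dapl1 (-1.85) and Ccr7 (-1.38). Lef1, a partner of Tcf7, was 2.16-fold lower (134.8 and 62.3 CPM), but at day 7 its level was highest in tumor barcodes, and with tumor RNA subtracted its log2 ratio was -1.88.

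**Figure D3:**
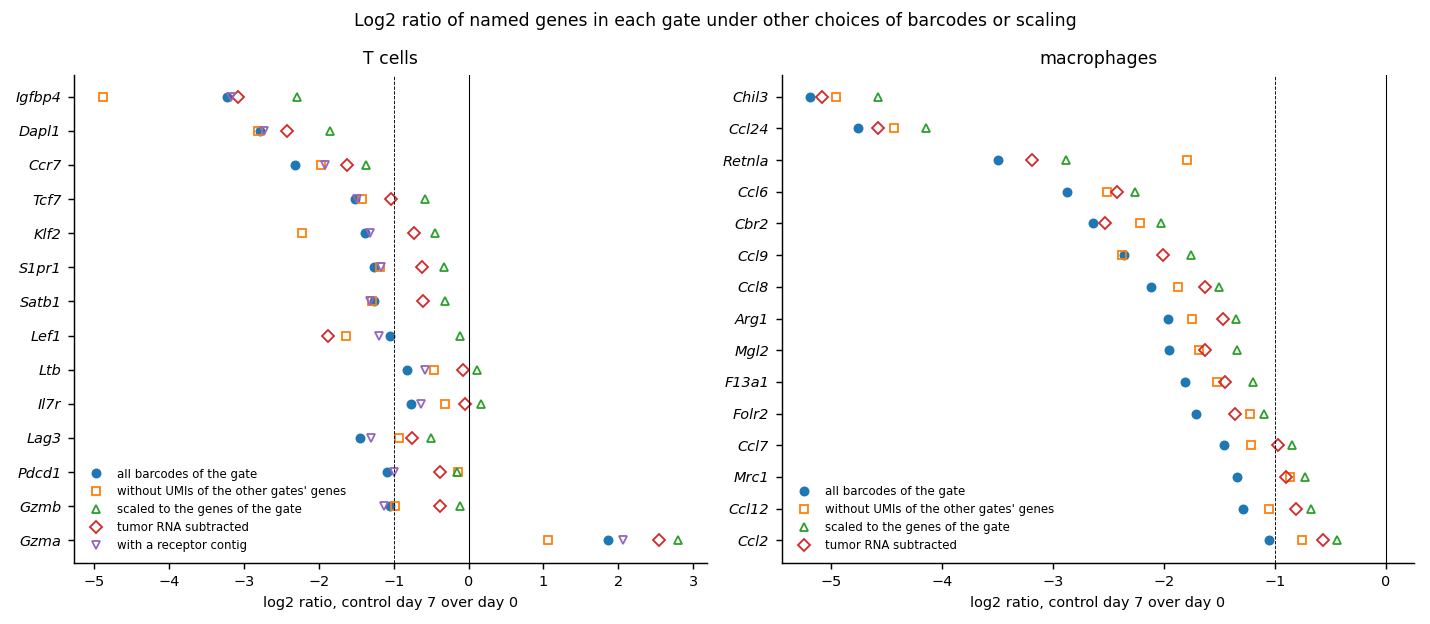
Log2 ratio of control day 7 over day 0 (horizontal) of 14 named genes in T cells (left) and 15 in macrophages (right), with filled circles for all barcodes of the gate and open symbols for each other choice of barcodes or scaling, and the dashed line at 2-fold lower. Igfbp4, Dapl1 and Ccr7 stay past 2-fold lower under every choice drawn, as do Chil3 to Folr2 in macrophages, while Pdcd1 and Gzmb come close to 0 under some.

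Genes of the T cell receptor complex had lower levels in the full gate, and most calls were lost under other choices. Cd3e, one of the genes of the gate, was at 944.1 CPM at day 0 and 393.2 CPM at day 7. Trac, the constant region of the alpha chain, was 2.35-fold lower, the adhesion receptor Cd2 2.53-fold, Thy1 2.35-fold and Cd247, the signalling chain of the receptor, 3.32-fold. Of 9 markers of T cells, 3 of which are the gate genes, 8 were at least 2-fold lower, with a median of -1.21. In exclusive gates 1 of the 9 was, with a median of -0.65, and none was with tumor RNA subtracted (-0.49) or scaled to T cell genes (-0.27). In barcodes with a receptor contig 6 of the 9 were, with a median of -1.02. Scaling to T cell genes raises every log2 ratio by 0.94 and sets the median of genes of this kind to 0. It therefore cannot show whether T cell markers were lower. Of 15 genes of receptor signalling 5 were called lower in the full gate and 0 with tumor RNA subtracted or scaled to T cell genes. Cd8a (173.5 and 96.27 CPM) and Cd4 (82.16 and 42.64 CPM) were 1.80-fold and 1.93-fold lower. In thinned barcodes 27.55% at day 0 and 25.86% at day 7 had a Cd8a or Cd8b1 UMI and none of Cd4, while 13.43% and 6.77% had the reverse.

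Of 13 homing receptors 4 were called lower and 2 higher, against 2.80% and 10.0% of all counted genes. The integrin chains Itga4 (77.95 and 162.8 CPM) and Itgb1 (173.3 and 421.5 CPM), which form an adhesion receptor for vessel walls and matrix, were the 2 higher, and Itgb1 was highest in tumor barcodes.

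Lists of activated T cells had lower medians in the full gate, and smaller shifts in exclusive gates. The exclusive T cell gate kept 69.6% of the full gate at day 0 and 10.29% at day 7. Its median UMIs per barcode were 4283.5 and 2189. Its SW1 markers were still higher at day 7, with a median log2 ratio of 3.62 against 3.29 in the full gate. Which of the 2 gates describes T cells better was not tested. Inhibitory receptors and Tox, which mark antigen-experienced cells, had 3 of 9 genes called lower and 0 higher, with a median of -0.60. Lag3 was at 136.9 and 47.08 CPM, the checkpoint receptor gene Ctla4 at 157.7 and 66.03 CPM, and Pdcd1, which encodes PD-1, at 160.4 and 72.38 CPM. In exclusive gates 0 of these 9 genes were called, with a median of -0.14, and Pdcd1 had a log2 ratio of -0.14 in place of -1.10. Havcr2, which encodes TIM-3, was at 49.51 and 43.15 CPM, and Tox at 74 and 47.18 CPM. Genes of regulatory T cells behaved alike, with 6 of 11 called lower and a median of -1.06 in full gates against 1 lower, 1 higher and 0.001 in exclusive gates. Among them the costimulatory receptors Tnfrsf4, Tnfrsf9 and Tnfrsf18 were 3.12-fold, 2.40-fold and 2.24-fold lower, the chemokine receptor Ccr8 2.49-fold lower, and Foxp3, the defining factor of these cells, was at 48.72 and 24.6 CPM. A Foxp3 UMI was found in 7.87% of thinned T cell barcodes at day 0 and 4.731% at day 7.

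Of 14 counted cytokine and chemokine genes, 4 were called lower and 0 higher, with a median of -0.85. Il13, a type 2 cytokine that signals to macrophages, was at 37.92 and 5.544 CPM, or 6.84-fold lower. Cd40lg, the signal of helper T cells to antigen-presenting cells, was 3.69-fold lower, Csf2, which encodes the myeloid growth factor GM-CSF, 2.96-fold, and Xcl1, which attracts cross-presenting dendritic cells, 2.35-fold. Ifng, the main effector cytokine against tumors, was at 60.04 and 75.61 CPM, and Tnf at 174.1 and 183.9 CPM. In exclusive gates 4 of the 14 were called lower as well, with a median of -0.49. With tumor RNA subtracted 1 was called lower and 1 higher, with a median of -0.10, and scaled to T cell genes 1 lower and 3 higher, with a median of 0.09. All counted genes had medians of 0.092 and 1.075 under these choices, with 4.63% and 56.2% called higher. Il13 remained past 2-fold lower in both (-1.60 and -1.08 on the log2 scale), whereas Cd40lg, Csf2 and Xcl1 did not. Ifng had log2 ratios of 1.03 and 1.25 under these choices, and -0.34 in exclusive gates.

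Among 12 counted cytotoxic genes 1 was called higher and 1 lower, against 10.0% and 2.80% of all counted genes. Gzma (chromosome 13, 113093825 to 113100981, minus strand), which encodes granzyme A, was at 40.29 CPM at day 0 and 159.1 CPM at day 7, a ratio of 3.95 (3.34 to 4.69). Its other libraries ranged widely, with 665.8 CPM in the L-fuc library of day 7, and 1.795 CPM (control) and 73.12 CPM (L-fuc) at day 21. Gzmb, granzyme B, went the other way, from 105.3 to 48.29 CPM, with 171.9, 136.4 and 9.622 CPM in those libraries. The log2 ratio of Gzma stayed above 1 in exclusive gates (1.05), in barcodes with a receptor contig (2.07) and with tumor RNA subtracted (2.54). In the macrophage gate it was 3.49, so the difference was not particular to the T cell gate. None of these choices removes free RNA of other leukocytes. The log2 ratio of Gzmb was -0.11 when scaled to T cell genes. Prf1, which encodes perforin, was at 43.72 and 40.22 CPM, Nkg7, a granule gene, at 867.5 and 658.6 CPM, and the chemokine gene Ccl5 at 3742 and 2032 CPM. Natural killer cells also express Gzma, and T cell barcodes without a receptor contig were not separated from them.

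Some genes of dividing cells were higher in T cells at day 7, while those of S phase were not called. Mki67, a gene of cycling cells, was at 49.51 and 154.1 CPM, a ratio of 3.11 (2.67 to 3.64), and Top2a, the topoisomerase of dividing cells, was at 54.78 and 164.2 CPM. Of 21 genes of G2 and mitosis 8 were called higher and 0 lower, with a median of 0.68, whereas of 17 genes of S phase 0 were called, with a median of -0.09. Of all counted genes 10.0% were called higher. In exclusive gates 14 of the 21 were called higher, against 16.7% of all counted genes. A UMI of Mki67 or Top2a was found in 8.333% of thinned T cell barcodes at day 0 and 29.45% at day 7. The share in macrophages was 11.55% and 24.16%, and in tumor barcodes at day 7 it was 26.31%, so a cycling share of T cells cannot be read from these values. With tumor RNA subtracted the log2 ratio of Mki67 was 1.78 and 5 of the 21 genes were called higher, against 4.63% of all counted genes.

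Some genes called in the T cell gate are known from other cell types. Cd79a, which encodes a chain of the B cell receptor, was at 241.2 CPM at day 0 and 6.653 CPM at day 7, or 36.3-fold lower (28.2 to 47.3). Of 4 B cell markers counted 3 were called lower, with a median of -3.22. Chil3 (194.3 and 2.218 CPM) and Ccl24 (223.3 and 4.133 CPM), both from lists of macrophage genes, were 87.6-fold and 54.0-fold lower in the T cell gate. Which cells of this gate carried them was not tested. In barcodes of this gate free of C1q and Sox10 UMIs, Chil3 was still at 166.1 CPM at day 0, Ccl24 at 54.22 CPM and Retnla at 5.81 CPM. Sparc, a matrix gene of the tumor cells, was at 92.17 CPM at day 0 and 1369 CPM at day 7, and it was at 526.6, 359 and 648.5 CPM in the other libraries. In thinned barcodes 1.62% of T cells at day 0 and 63.21% at day 7 had a Sparc UMI, against 96.78% of tumor barcodes at day 7. The neutrophil genes S100a8 (13.96 and 160.8 CPM) and S100a9 (13.69 and 185.3 CPM) were also higher.

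T cell receptor contigs gave a readout that the gates did not use. A productive contig of the alpha chain (TRA) or beta chain (TRB) was found in 79.25% of T cell barcodes at day 0 (378 of 477, 75.32 to 82.8) and in 51.84% at day 7 (776 of 1497, 49.27 to 54.4). In macrophages the share was 13.38% and 13.26%. In tumor barcodes it was 0 of 265 at day 0, which allows up to 1.382%, and 0.678% at day 7. In exclusive gates the T cell shares were 83.43% and 42.86%, so fewer barcodes of the gate held a receptor at day 7 in these as well.

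The largest clonotypes held more T cell barcodes at day 7. Both chains were found in 333 T cell barcodes at day 0 and 635 at day 7, which formed 281 and 376 clonotypes. Of these barcodes 23.42% (18.98 to 28.35) at day 0 and 48.35% (44.4 to 52.31) at day 7 shared their clonotype with at least 1 other barcode. That share grows with the number of barcodes sampled, which the share of pairs does not. Of 55278 pairs of barcodes at day 0, 112 (0.2026%) shared a clonotype, and of 201295 pairs at day 7, 2820 (1.401%) did. The largest clonotype held 8 barcodes (2.402%) at day 0 and 55 (8.661%, 6.591 to 11.12) at day 7, followed by 7, 6 and 5 at day 0 and by 24, 23 and 21 at day 7. Clonotypes of at least 5 barcodes were 4 and 15. Of barcodes with a contig, 378 of 386 at day 0 and 776 of 949 at day 7 were kept and in the T cell gate. Whether free RNA or doublets added barcodes to a clonotype was not tested. No clonotype was found in both libraries, among 330 and 487 beta chain CDR3 sequences, and the libraries came from different mice.

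The CDR3 is the part of the receptor that is made anew in each T cell and contacts the peptide, so it names a clone. Those of the largest clonotype of each library are shown because the difference in clone size turns on them, as nucleotides from the deposited contigs, 5′ to 3′.
Day 0, alpha chain, TRAV12-3 and TRAJ6: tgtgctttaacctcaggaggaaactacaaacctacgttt
Day 0, beta chain, TRBV3 and TRBJ2-1: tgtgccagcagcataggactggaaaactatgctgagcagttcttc
Day 7, alpha chain, TRAV13-1 and TRAJ49: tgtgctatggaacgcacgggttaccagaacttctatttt
Day 7, beta chain, TRBV10 and TRBJ2-4: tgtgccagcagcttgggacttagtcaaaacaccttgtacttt
They were 39, 45, 39 and 42 bases long, and the V and J genes lie on chromosome 14 for the alpha chain and chromosome 6 for the beta chain. A Cd8a UMI was found in 8 of 8 barcodes of the day 0 clonotype and in 30 of 55 of the day 7 clonotype, and a Cd4 UMI in 0 and 2. A Gzma UMI was found in 0 of 8 and 11 of 55, and a Mki67 UMI in 1 of 8 and 22 of 55. These counts are not thinned, and RNA of other cells can add to them. Over all T cell barcodes without thinning, 19.5% at day 0 and 47.09% at day 7 had a UMI of Mki67 or Top2a. Whether the clones differ from the rest of the gate was not tested.

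**Figure D4:**
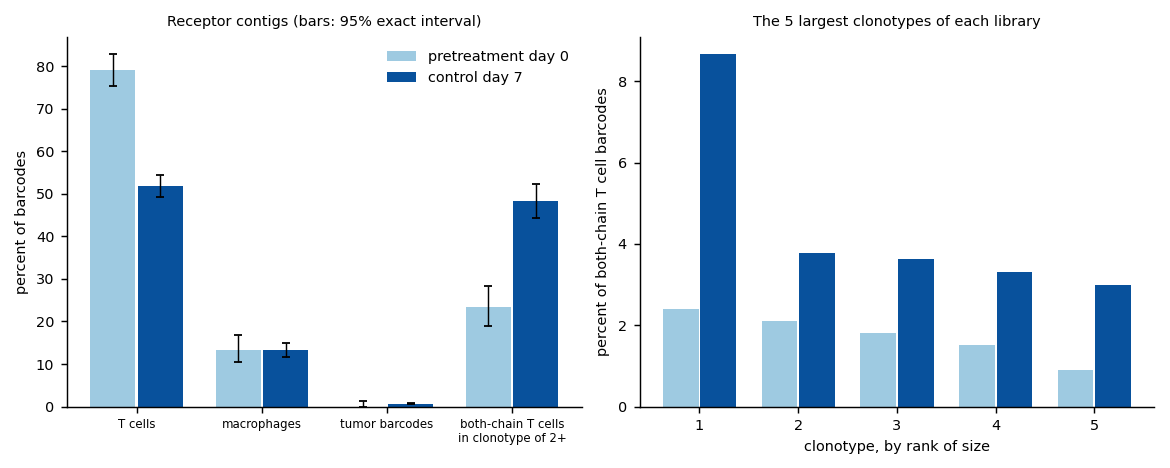
Left, percent of barcodes of each gate with a productive receptor contig, and percent of T cell barcodes with both chains in a clonotype of 2 or more, at day 0 (light) and control day 7 (dark), with exact 95% intervals. Right, percent of both-chain T cell barcodes in each of the 5 largest clonotypes of each library. The contig share in T cells is 79.25% at day 0 and 51.84% at day 7, and the largest clonotype takes 2.402% and 8.661%.

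Genes of alternative activation were the lowest list in macrophages at day 7. Of 18 genes 12 were counted, of which 8 were called lower and 0 higher, and the median log2 ratio was -1.76 against 0.10 for all counted genes. Chil3 (chromosome 3, 106147554 to 106167564, minus strand), which encodes the secreted chitinase-like protein Ym1, was at 251.4 CPM at day 0 and 2.038 CPM at day 7, and at 0.753, 0 and 2.099 CPM in L-fuc day 7, control of day 21 and L-fuc of day 21. That is 123.4-fold lower at day 7 (85.0 to 186.4), and day 0 stood apart from all 4 later libraries. Retnla (chromosome 16, 48842551 to 48844461, plus strand), which encodes the secreted protein Relm-alpha, was at 172.2 and 10.7 CPM, or 16.1-fold lower (13.5 to 19.3). Its later libraries did not follow those of Chil3, since it was at 4.41 CPM in L-fuc day 7 but 158.5 CPM in control day 21 and 406.4 CPM in L-fuc day 21.

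Both genes were carried by few barcodes. A Chil3 UMI was found in 4.462% of thinned macrophage barcodes at day 0 and 0.2503% at day 7, and a Retnla UMI in 3.937% and 0.6258%. In the T cell gate the shares were 2.546% and 0.1631% for Chil3 and 2.315% and 0.2447% for Retnla, so they were present in both gates at day 0. Which cells carried them was not tested.

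Arg1, the arginine-degrading enzyme of these macrophages, was more widely expressed, at 1118 CPM at day 0 and 283.8 CPM at day 7, or 3.94-fold lower (3.78 to 4.10). It was at 149.1, 140.2 and 287.5 CPM in the other libraries, all below day 0. An Arg1 UMI was found in 27.03% of thinned macrophage barcodes at day 0 and 15.27% at day 7, against 8.102% and 8.891% in T cells. The lectin receptor genes Mgl2 (49.79 and 9.17 CPM) and Mrc1 (98.26 and 35.88 CPM) were 5.43-fold and 2.74-fold lower. F13a1, a coagulation factor gene of this program, was 4.45-fold lower, and Folr2, a folate receptor gene of tissue-resident macrophages, 4.26-fold. The growth factor gene Igf1, which was not among the 8 called genes of the list, was 3.36-fold lower. Socs3, a brake on cytokine signalling (494.5 and 249.4 CPM), Tgfbi (940.5 and 533.9 CPM) and the scavenger receptor gene Stab1 (48.09 and 37.26 CPM) were not called, and the matrix gene Fn1 was nearly equal at 117.5 and 112.9 CPM. In exclusive gates 7 of the 12 genes were called lower, when scaled to macrophage genes 7, and with tumor RNA subtracted 8, with medians of -1.37, -1.15 and -1.46.

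The sequences before the starts of Retnla and Chil3 are shown because these genes had the lowest ratios of the list and both are known targets of STAT6, the factor activated by IL-4 and IL-13. STAT6 prefers the palindrome TTCNNNNGAA and other STAT factors TTCNNNGAA. The 250 bases before each start come from RefSeq on GRCm38.p6, 5′ to 3′ on the gene's strand, with the matches in capitals.
Retnla, chr16:48842359-48842608, plus strand, TTCNNNNGAA in capitals: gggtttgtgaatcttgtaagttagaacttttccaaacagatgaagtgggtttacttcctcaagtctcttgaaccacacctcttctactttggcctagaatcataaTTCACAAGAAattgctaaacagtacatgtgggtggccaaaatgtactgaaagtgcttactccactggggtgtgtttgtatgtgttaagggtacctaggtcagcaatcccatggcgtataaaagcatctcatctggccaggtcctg
Chil3, chr3:106167565-106167814, minus strand, TTCNNNGAA in capitals: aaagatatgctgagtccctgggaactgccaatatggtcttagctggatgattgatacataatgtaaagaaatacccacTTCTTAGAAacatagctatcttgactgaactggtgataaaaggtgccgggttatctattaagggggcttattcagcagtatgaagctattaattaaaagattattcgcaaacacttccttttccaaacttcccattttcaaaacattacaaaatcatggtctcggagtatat
The match lies 145 to 136 bases upstream in Retnla and 172 to 164 in Chil3, counted from the RefSeq starts at 48842609 and 106167564. The GENCODE start of Retnla given above lies before the RefSeq start, so the end of its printed stretch is within the GENCODE gene. Such matches are common, since 1923 of 32851 promoters (5.85%) held TTCNNNNGAA and 2306 (7.02%) held TTCNNNGAA. Of 13 genes of the list with a promoter sequence, 1 held the first (Retnla) and 2 the second (Chil3 and Socs3).

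CC chemokine genes of macrophages were also lower. Of 12 genes 10 were counted, of which 7 were called lower and 0 higher, with a median of -1.37. Ccl24 (chromosome 5, 135569937 to 135573049, minus strand), which attracts eosinophils, was at 236.5 CPM at day 0 and 3.93 CPM at day 7, or 60.2-fold lower (45.8 to 80.6), and at 2.151, 2.726 and 3.713 CPM in the other libraries. Ccl8, a monocyte attractant, was at 3634 and 833.6 CPM, or 4.36-fold lower (4.26 to 4.46), and at 896.4, 1347 and 1602 CPM in the others. For both genes day 0 was the highest of the 5 libraries. Ccl24 had similar levels in the T cell gate at both days, as given above, so its difference was not particular to the macrophage gate. Ccl8 UMIs were found in 45.93% of thinned macrophage barcodes at day 0 and 36.36% at day 7, against 9.259% and 17.86% of T cells.

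The neighbouring genes Ccl6 and Ccl9 of the cluster on chromosome 11 were 7.89-fold lower (444.5 and 56.33 CPM) and 6.56-fold lower (95.99 and 14.63 CPM). The monocyte attractants Ccl7, Ccl12 and Ccl2 were 2.80-fold, 2.48-fold and 2.09-fold lower. Other members were nearer to equality, with Ccl4 at 2644 and 2157 CPM, Ccl3 at 503.7 and 427.8 CPM, and Ccl5, which T cells also express, at 741.5 and 756.1 CPM. In exclusive gates 6 of the 10 genes were called lower, and with tumor RNA subtracted 4. The log2 ratio of Ccl24 was between -4.76 and -4.15 over these choices and that of Ccl8 between -2.12 and -1.51, whereas that of Ccl2 was -1.05 in full gates and -0.44 when scaled to macrophage genes.

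Other genes with low ratios in macrophages included Rnase2a, a ribonuclease gene (310.2 and 9.679 CPM, 32.1-fold lower), and Cbr2, a carbonyl reductase gene of alternatively activated macrophages (65.25 and 6.259 CPM, 10.4-fold lower). The matrix-degrading proteases Mmp13 and Mmp12 were 5.40-fold and 3.16-fold lower, at 95.05 and 17.61 CPM and at 289.5 and 91.55 CPM. Rnase2a can share reads with near-identical family members, and its value is uncertain for that reason. Of the 10 lowest log2 ratios in macrophages, all 10 stayed past 2-fold lower in exclusive gates, when scaled to macrophage genes and with tumor RNA subtracted. They were picked as the lowest of these same data, which favours this outcome. For the scaling it was fixed in advance, since a shift of 0.61 is too small to bring any of the 10 back within 2-fold.

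Of 10 general macrophage markers 1 was called lower, Lyz2, which encodes lysozyme, at 3906 and 1780 CPM. C1qa, C1qb and C1qc, the gate genes, were not called, at 6796 and 3931, 5750 and 3408, and 5075 and 3001 CPM. Of 8 MHC class II genes 2 were called lower, with a median of -0.83, and the invariant chain gene Cd74 was at 26455 and 12944 CPM. Of 17 inflammatory genes 3 were called lower, with a median of -0.55. Il1b, which encodes interleukin-1 beta, was at 2017 and 969.4 CPM, with 1041, 2135 and 1744 CPM in L-fuc day 7, control of day 21 and L-fuc of day 21, and Tnf was at 534.1 and 378.3 CPM. Scaled to macrophage genes none of the 10 markers, 8 MHC class II genes or 17 inflammatory genes was called, with medians of -0.14, -0.22 and 0.06. That scaling raises every log2 ratio by 0.61, so it can only remove lower calls. All counted genes had a median of 0.715 under it.

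Of 18 genes of lipid handling 1 was called higher and 4 lower, against 9.62% and 1.58% of all counted genes. The cholesterol exporter Abca1 was higher, at 56.77 and 119.4 CPM, and the lipid scavenger receptor gene Cd36 was 4.32-fold lower, at 49.98 and 11.57 CPM. Apoe, which encodes a lipid carrier, had a ratio of 1.06, at 5716 and 6073 CPM, beside the lower complement genes. Of 20 lysosome genes 2 were called lower, with a median of -0.59, among them the cathepsin gene Ctsl (1013 and 442 CPM).

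Of the 519 genes called higher in the macrophage gate, 10 had their highest level at day 7 in that gate. The same share over all counted genes is not given. The 10 highest log2 ratios were led by hemoglobin and tumor genes, and Sparc was at 35.83 and 974.7 CPM. Gzma, a gene of lymphocytes, was at 3.96 and 95.85 CPM. With tumor RNA subtracted 203 genes were called higher in place of 519, and scaled to macrophage genes 1670 were. In the full gate the stress genes Gdf15 (10.37 and 35.88 CPM) and Hspb1 (21.12 and 60.19 CPM) and the growth factor gene Areg (19.61 and 45.41 CPM) were also higher. Of 17 heat shock and chaperone genes 4 were called higher in macrophages, with a median of 0.59, and 5 of 18 in T cells, with a median of 0.66. Of all counted genes 9.62% and 10.0% were called higher in these gates. With tumor RNA subtracted 2 of the 18 were called higher in T cells, with a median of 0.22. The summed level of the list at day 7 was 9068 CPM in macrophages, 9329 CPM in T cells and 11961 CPM in tumor barcodes.

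**Figure D5:**
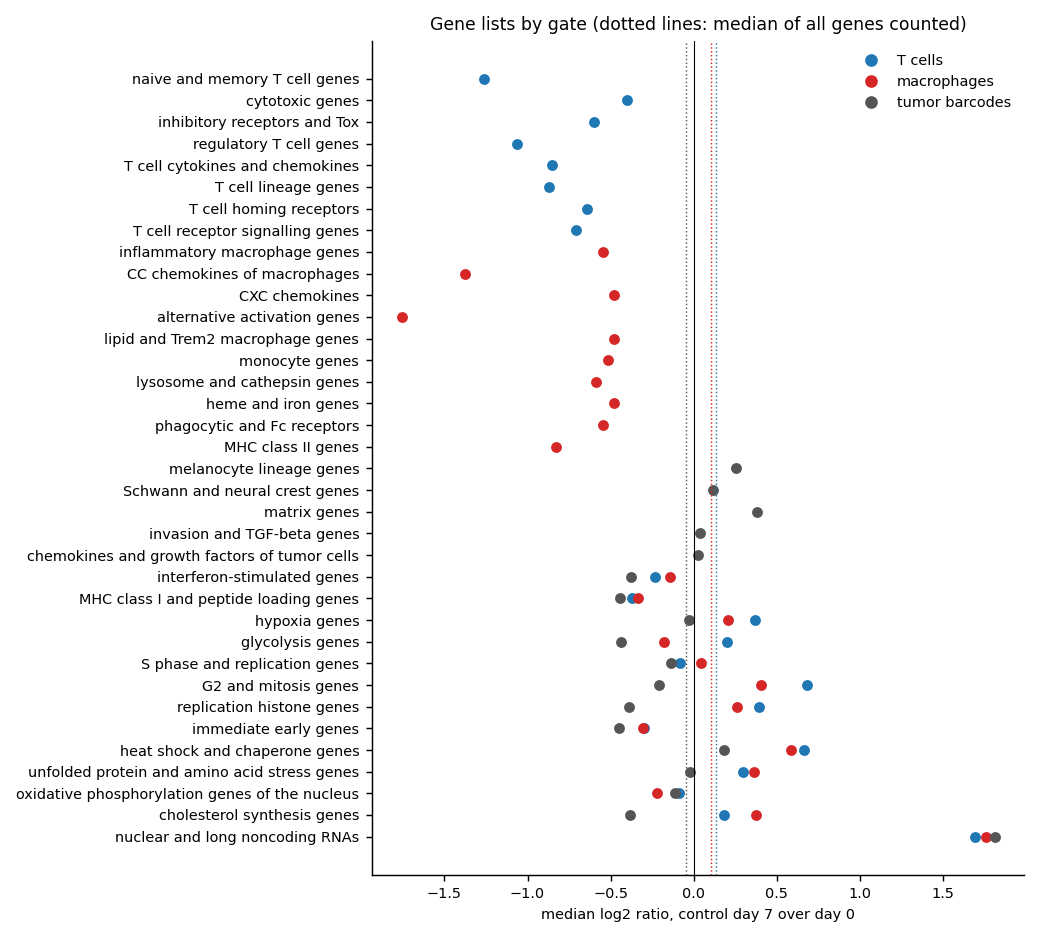
Median log2 ratio of control day 7 over day 0 (horizontal) of each gene list with at least 5 counted genes (marker lists of cell types are not drawn), by gate in colour, with the median of all counted genes of each gate as a dotted line. The lowest medians are those of alternative activation genes (-1.76) and CC chemokines (-1.37) in macrophages and of naive and memory genes (-1.26) in T cells, and nuclear and long noncoding RNAs are the highest of the lists drawn in all 3 gates.

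Tumor barcodes differed least between the libraries. None of the 16 counted Schwann and neural crest genes, 17 matrix genes or 10 invasion and TGF-beta genes was called, with medians of 0.12, 0.38 and 0.04 against -0.05 for all counted genes. Sox10, the gate gene and the central factor of this lineage, was at 450.6 and 399.3 CPM, its target Erbb3 at 103.7 and 143.1 CPM, and Sparc at 3876 and 3540 CPM. Of 18 melanocyte genes only 5 were counted, with 0 called, and Mitf, the factor of pigment cells, was at 34.28 and 42.43 CPM. Mki67 was at 112.2 and 138.8 CPM, and 0 of 28 genes of G2 and mitosis were called, with a median of -0.21. In thinned tumor barcodes a UMI of Mki67 or Top2a was found in 17.86% (13.33 to 23.15) at day 0 and 26.31% (25.37 to 27.26) at day 7. The hypoxia list had 0 of 20 called and a median of -0.03.

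Glycolysis genes included 2 of the 31 lower calls. Gapdh (chromosome 6, 125161715 to 125166467, minus strand), a glycolytic enzyme often taken as a constant reference, was at 3522 CPM at day 0 and 1341 CPM at day 7, and at 2117, 1701 and 2780 CPM in the other libraries. Eno1, the enolase of the same pathway, was at 873.9 and 408 CPM, and Eno1b, which shares nearly all of its sequence with Eno1 and is uncertain for that reason, at 505 and 145.6 CPM. The list as a whole had a median of -0.44 over 14 genes. The alpha tubulin genes Tuba1a (714.8 and 331 CPM), Tuba1b (831.6 and 403.7 CPM) and Tuba1c (137.8 and 59.8 CPM), which can also share reads, were lower as well.

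Most early response genes had lower levels at day 7. Of 19 counted in tumor barcodes 2 were called lower and 1 higher, against 0.502% and 1.54% of all counted genes, with a median of -0.45. The ratio was below 1 for 14 of the 19. Fos, a factor induced within minutes of a stimulus or of tissue handling, was at 1708 and 772 CPM and Zfp36, which degrades cytokine messages, at 342.5 and 137.7 CPM, both called lower. Egr3, a factor of the same class, was called higher, at 20.3 and 62.51 CPM. Other genes called higher, chosen after their values were seen, were Fzd7, a Wnt receptor gene (15.06 and 40.38 CPM), Ptch1, the hedgehog receptor gene (12.01 and 30.86 CPM), Igf1r, which encodes the receptor of insulin-like growth factor (48.9 and 105.9 CPM), and the collagen genes Col6a3 (13.32 and 34.26 CPM) and Col5a3 (63.31 and 133.1 CPM), beside 0 calls in the matrix list. The interferon-induced gene Ifi47 was lower (112.9 and 50.55 CPM), the only call among 20 interferon-stimulated genes, whose median was -0.38.

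Genes of leukocytes were higher in tumor barcodes at day 7 although the gate asks for 0 Ptprc UMIs. Ccl5 was at 1.747 and 68.88 CPM, Ccl4 at 1.31 and 58.18 CPM, Cd52 at 3.711 and 66.94 CPM and Ctss at 9.824 and 90.88 CPM. The summed level of macrophage markers was 1.637% of that in macrophages at day 0 and 5.63% at day 7, and that of T cell markers 0.1441% and 3.344% of that in T cells. Of 10 macrophage markers 5 were counted, and all 5 were called higher, with a median of 1.53, against 1.54% of all counted genes. A marker scarce at day 0 is counted only if its day 7 level is high, which favours this outcome. The 10 highest log2 ratios of this gate, which these genes and hemoglobin genes lead, stayed past 2-fold in exclusive gates. They were picked as the highest of these same data, which favours that as well.

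Hemoglobin and mitochondrial genes were higher in all 3 gates. Hbb-bs, an adult beta globin gene of red cells, had 1 UMI in T cells at day 0 and was at 808.7 CPM at day 7, with 2579, 8.976 and 0.9622 CPM in L-fuc day 7, control of day 21 and L-fuc of day 21. Macrophages had 0 UMIs at day 0 and 497.5 CPM at day 7, at least 879.3-fold higher against a floor of 3 counts. Tumor barcodes were at 0.6549 and 457 CPM. A UMI of Hbb-bs was found in 24.31% of thinned T cells, 19.9% of macrophages and 17.7% of tumor barcodes at day 7 and in 0 T cells and macrophages at day 0. In macrophages the control library of day 21 was at 320 CPM, unlike in T cells.

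Mitochondrial mt-Co1 was at 895.9 and 5572 CPM in T cells, 871.8 and 6076 CPM in macrophages and 1385 and 6350 CPM in tumor barcodes, a ratio of 6.22 in T cells and 4.58 in tumor barcodes, within a filter that removed barcodes above 10%. The nuclear RNA Malat1 was at 4000 and 7808 CPM in T cells, 2089 and 6862 CPM in macrophages and 2969 and 7762 CPM in tumor barcodes. Gm42418, which overlaps ribosomal RNA, was at 15249 and 59813, 17519 and 54352, and 9546 and 49150 CPM. Of 6 nuclear and long noncoding RNAs 4 were called higher in T cells and 5 in each of the other gates, with medians of 1.69, 1.76 and 1.81. Their share moved with the library in every gate, and its part in the ratios of other genes was tested only by the totals without these RNAs.

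Lower in all 3 gates were 7 genes, among them Gm11808, the histone gene Hist1h2ap and H2-DMb2, a chaperone gene of MHC class II. Several of these have near-identical copies or overlap other genes, and their values are uncertain for that reason. Interferon-stimulated genes had 0 called higher and 2 lower of 36 in T cells and 0 and 2 of 37 in macrophages, at medians of -0.23 and -0.14. Of all counted genes 10.0% were called higher and 2.80% lower in T cells, and 9.62% and 1.58% in macrophages. MHC class I and peptide loading genes had medians of -0.37, -0.33 and -0.44 in T cells, macrophages and tumor barcodes, with 2 called higher in T cells and none elsewhere.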

How the data were processed

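Gene expression was measured in 2 pooled droplet libraries, pretreatment day 0 and control day 7, with 3 further libraries shown for level only, and T cell receptors in the 2 matching receptor libraries. The authors deposited raw UMI counts per gene and barcode, not normalized, from Cell Ranger on mm10 (labels 3.0, matrix header 7.1.0; Seurat 4.0 per the labels), and counts of UMIs per receptor contig. Totals were 14439185 and 119047810 UMIs. The authors' doublet callers were not run; exclusive gates stand beside the full ones.

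UMIs were summed per gate and scaled to 1000000. Ratios have exact conditional binomial and shares exact Clopper-Pearson 95% intervals, for counting error only. Genes named were the 10 highest and 10 lowest ratios per gate (at least 30 UMIs on the higher side), 2 highest and 2 lowest per list, up to 8 shared by all gates each way, and genes needed as markers or to describe a list, some chosen after their values were seen. The members and lists were chosen with earlier results of these data known. Alternatives were added after seeing the data (gate-gene scaling, tumor RNA subtraction, receptor-bearing T cells). GENCODE vM21 (GRCm38) gave positions and RefSeq promoters. Scripts ran in Python 3.11.15 with pandas 2.3.3, scipy 1.17.1, numpy 2.4.6 and matplotlib 3.10.9, and were tested on simulated data. Some genes of the lists are not reported here.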

Additional observations from a re-analysis of the deposited data

Results flagged for a closer look

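Of 5639 genes counted in at least 2 gates, 5 were past 2-fold in opposite directions in 2 of them. With 1 library per side these differences between gates were not tested. Acot1, an acyl-CoA thioesterase gene, had a log2 ratio of 2.49 in T cells and -1.28 in tumor barcodes, a difference of 3.77. Gm4316, a predicted gene, was at 1.08 in macrophages and -2.50 in tumor barcodes, a difference of 3.58. Lef1, a factor of naive T cells that tumor barcodes also expressed, was at 1.52 in macrophages and -1.06 in T cells, a difference of 2.58. Lyz2, the lysozyme gene of macrophages, was at 1.90 in tumor barcodes and -1.13 in macrophages, a difference of 3.03. Srgn, which encodes a proteoglycan of leukocyte granules, was at 1.499 in tumor barcodes and -1.206 in T cells, a difference of 2.71. For Lef1, Lyz2 and Srgn the higher ratio was found outside the gate in which the gene is characteristic.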

How the results depend on the processing

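No paired analysis was possible because each side is 1 pooled library. Counts of genes past 2-fold, 594 higher and 166 lower in T cells, 519 and 85 in macrophages, and 95 and 31 in tumor barcodes, moved by more than 1.5 times as follows. In T cells the lower genes were 90 with stricter gates and 252 with the median of ratios, and the higher genes were 991 in exclusive gates. Without a filter on level there were 1392 higher and 290 lower in T cells, 1279 higher in macrophages and 198 higher in tumor barcodes. Scaled to the genes of the gate there were 3334 and 33 in T cells and 1670 and 23 in macrophages. With tumor RNA subtracted there were 256 and 78 in T cells and 203 higher in macrophages. In macrophages the higher genes were 312 in exclusive gates and 891 with totals that leave out mitochondrial, ribosomal protein, hemoglobin and nuclear RNAs, which gave 216 in tumor barcodes. Tumor barcodes had 245 higher with a mean CPM per barcode, and 343 higher and 50 lower after thinning. Of 1069 list medians under an alternative, 57 had the other sign than the value reported, 25 of them when scaled to the genes of the gate. Of the 57, 1 had been past 2-fold, the median of regulatory T cell genes in T cells, which was 0.001 in exclusive gates against -1.064. The causes of these shifts were not tested. The smaller side was day 0 in full gates, with 265 to 477 barcodes, and day 7 in the exclusive T cell gate, with 154 against 332.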
